A study of Mus musculus with 6 samples.

Results

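Immediate early genes and heat shock genes were followed in pineal glands of newborn mice with and without the transcription factor Neurod1. The set held 35 named genes, chosen by name as known early and stress genes: 26 early response genes, 5 heat shock genes and 4 growth arrest and stress genes. A gene entered through the probe sets that the array annotation assigns to it alone, and was represented by the probe set with the highest mean over the 6 arrays. All 35 genes had such a probe set, out of 18193 genes on the array with one, and 31 of them passed the filter on dim signals described with the values.

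Pineal glands were compared between mice homozygous for a Neurod1 knockout and wildtype mice, both of strain 129, at postnatal day 0. Each genotype had 3 pools, each pool held 3 glands and was a separate biological sampling, and each pool was measured on 1 Affymetrix array. All animals lived under 12 h of light and 12 h of darkness and were sampled by day with no further treatment given in the labels, and the RNA of every pool was amplified in a single round and labelled with biotin. What was deleted in Neurod1 is not stated in the labels, and a pool of whole glands averages over all cell types in the dissected tissue, so fewer cells of a type and less RNA per cell cannot be told apart.

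Immediate early genes are transcribed within minutes of a stimulus from factors already present in the cell, mainly the serum response factor Srf with its Elk partners and the cAMP-responsive factor Creb1, so no new protein has to be made first. Many of them encode transcription factors (the Fos, Jun, Egr, Nr4a and Klf families), others encode proteins that end the signal, such as the phosphatases Dusp1 and Dusp2 or the RNA-binding protein Zfp36. Heat shock genes encode chaperones and are driven by heat shock factors when proteins misfold, and Ddit3 and the Gadd45 genes respond to blocked translation and DNA damage. In the adult rat pineal gland, several early genes, among them Fosl2, Nr4a1, Egr1 and Dusp1, are switched on at night by the adrenergic signal that also starts melatonin synthesis.

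The promoters show which of these inputs can be read from the DNA. They are the 250 bases before the annotated start in the RefSeq table of build GRCm38.p6, which held 29 of the 35 genes, all but Fosl1, Egr1, Egr3, Ier2, Arc and Hspa8. Both strands were searched for the CArG box bound by Srf, the cAMP response element TGACGTCA, its shorter form TGACG, which the full element contains, the AP-1 site TGANTCA bound by Fos and Jun proteins, the heat shock element GAANNTTC and the TATA box TATAAA. The sequences of 7 genes are printed as examples. Fos, Dusp1, Hspa1a and Hspa1b are among the genes reported in most detail below, and Fosb is the closest relative of Fos. Btg2, with Dusp1, holds the full cAMP element, and Nr4a1 holds several short ones. No comparison of the genotypes rests on the sequences. The sequences run 5′ to 3′ on the strand of the gene, and capitals mark the matched motifs.
Fos, chr12:85473640-85473889, plus strand: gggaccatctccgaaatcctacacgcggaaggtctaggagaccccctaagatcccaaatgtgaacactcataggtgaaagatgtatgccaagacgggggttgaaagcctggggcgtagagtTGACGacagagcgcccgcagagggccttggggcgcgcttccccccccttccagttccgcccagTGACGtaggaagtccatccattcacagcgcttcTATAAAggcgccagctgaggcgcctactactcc
Fosb, chr7:19310046-19310295, minus strand: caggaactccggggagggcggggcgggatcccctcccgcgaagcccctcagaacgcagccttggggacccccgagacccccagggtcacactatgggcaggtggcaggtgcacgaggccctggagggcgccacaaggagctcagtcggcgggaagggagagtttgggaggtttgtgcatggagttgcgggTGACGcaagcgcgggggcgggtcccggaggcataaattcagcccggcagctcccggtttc
Nr4a1, chr15:101266596-101266845, plus strand: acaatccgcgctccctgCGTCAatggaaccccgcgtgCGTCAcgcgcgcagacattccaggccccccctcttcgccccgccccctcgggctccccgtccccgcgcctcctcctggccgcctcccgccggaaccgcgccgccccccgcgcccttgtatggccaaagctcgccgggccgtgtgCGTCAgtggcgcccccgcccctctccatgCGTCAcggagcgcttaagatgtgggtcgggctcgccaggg
Dusp1, chr17:26508473-26508722, minus strand: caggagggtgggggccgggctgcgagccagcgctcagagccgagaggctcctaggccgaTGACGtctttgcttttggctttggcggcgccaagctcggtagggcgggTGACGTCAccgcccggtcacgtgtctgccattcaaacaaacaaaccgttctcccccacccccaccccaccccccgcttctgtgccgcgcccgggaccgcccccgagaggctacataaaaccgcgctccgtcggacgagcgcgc
Btg2, chr1:134079156-134079405, minus strand: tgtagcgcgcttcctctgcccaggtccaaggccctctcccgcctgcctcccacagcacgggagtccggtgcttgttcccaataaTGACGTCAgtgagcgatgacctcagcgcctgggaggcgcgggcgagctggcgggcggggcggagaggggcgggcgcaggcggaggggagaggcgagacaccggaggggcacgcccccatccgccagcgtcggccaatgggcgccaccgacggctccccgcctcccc
Hspa1a, chr17:34972157-34972406, minus strand: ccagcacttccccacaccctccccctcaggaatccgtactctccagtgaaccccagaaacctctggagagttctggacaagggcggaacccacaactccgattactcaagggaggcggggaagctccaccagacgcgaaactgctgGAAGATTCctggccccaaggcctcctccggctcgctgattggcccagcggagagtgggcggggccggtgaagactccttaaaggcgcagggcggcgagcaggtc
Hspa1b, chr17:34959239-34959488, minus strand: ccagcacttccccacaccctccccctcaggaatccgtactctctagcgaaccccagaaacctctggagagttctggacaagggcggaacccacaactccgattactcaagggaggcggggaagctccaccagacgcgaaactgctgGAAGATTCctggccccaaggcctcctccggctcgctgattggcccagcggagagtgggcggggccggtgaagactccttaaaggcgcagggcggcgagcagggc

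In the Fos promoter the short cAMP element began 66 bases before the start and again at 129 bases, with a TATA box at 33 bases. Fosb held 1 short element at 60 bases, and Nr4a1 held 4, all on the opposite strand. The full element stood in 2 of the 29 promoters, at 143 bases in Dusp1 and at 166 bases in Btg2, against 1.8% of all 27025 genes in the table. The short element was in 14 of 29 (48.3%), against 19.8% of all genes, and these 14 were Fos, Fosb, Junb, Atf3, Egr2, Egr4, Nr4a1, Nr4a2, Nr4a3, Klf2, Klf4, Dusp1, Btg2 and Dnajb1. Hspa1a and Hspa1b share a heat shock element at 104 bases, and their windows are identical at 247 of 250 positions. That element was also found in Fosl2 and Jun (4 of 29, 13.8%, against 7.7% of all genes). CArG boxes were found in Egr2 and Zfp36 (2 of 29, 6.9%, against 1.6%), an AP-1 site in Ddit3 (1 of 29, 3.4%, against 7.8%), and TATA boxes in Fos, Nr4a2, Gadd45b and Gadd45g (4 of 29, 13.8%, against 14.3%). None of the searched motifs was found in Dusp2, Jund, Klf6, Ier3, Ier5, Hsph1 or Gadd45a. These are matches of letters, given with no test, and a motif outside the 250 bases is not seen. The heat shock element was searched only as GAANNTTC, so its absence from a gene holds for that order alone. The Hsph1 promoter holds ttctcgaa, with the same triplets in the other order, which was not searched for or counted in any gene.

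The values are probe set signals, a fluorescence intensity on a linear scale with nearly the same trimmed mean on every array as deposited. Levels are compared between pools for 1 probe set, never between probe sets. Tests were made on log2(signal + 38.6), where 38.6 is the 20th percentile of all values, and differences are knockout minus wildtype on that scale, which understates the change of dim genes. Dim probe sets, namely the lowest 40% by mean (a signal of about 105), did not enter, and 12797 genes were tested with limma. A call needed an adjusted p (Benjamini-Hochberg over all 12797 genes) under 0.05. Pools are given in the order 1, 2 and 3; pools of the same number share a label date across the genotypes, and differences within a number are given beside the pooled ones.

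The targeted gene gave 390.2, 523.9 and 122.5 in knockout pools, against 9027, 9300.6 and 7519.4 in wildtype pools. Neurod1 was thus lower in every knockout pool (log2 difference −4.67, SE 0.45, limma adjusted p = 0.0362), and was the one gene called; the call was lost when knockout pool 1 or any wildtype pool was left out, with adjusted p between 0.0985 and 0.621. Median array signals ran from 168.1 to 183.7 in knockout pools and from 132.4 to 182 in wildtype pools. Of the pinealocyte markers, Tph1, Crx, Otx2 and Sag were bright in all pools, while Rcvrn (7.2 to 24.5) and Rax (35.8 to 220.5) were below the filter. The summed signal of the pinealocyte markers (17 genes) was 38975.7 to 62245.3 in knockout pools and 65185.5 to 87034.4 in wildtype pools. Macrophage markers (15 genes) summed to 15909.8 to 20690.6 in knockout pools and 11720.6 to 13106.8 in wildtype pools, and pericyte and smooth muscle markers (10 genes) to 15655.8 to 23098.3 in knockout pools and 11662.5 to 14742.3 in wildtype pools. Fibroblast and meningeal markers (13 genes) summed to 113150 to 134671 in knockout pools and 87908.9 to 95083.6 in wildtype pools, and neuron markers (15 genes) to 39679.5 to 43498.3 in knockout pools and 47797.9 to 52758 in wildtype pools. The neuron sum is set mainly by Snap25, Slc17a6 and Map2. Of the 13 tested neuron markers 6 had a higher and 7 a lower mean in knockout. Gad1 lay apart on the higher side, and Map2 and Elavl4 lay apart on the lower side. In these 5 lists the sums of the genotypes did not overlap. They overlapped in the endothelial, Schwann and oligodendrocyte, astrocyte and interstitial glia, and red blood cell lists. Col1a1, Col1a2 and Col3a1 make up most of the fibroblast sum, and Rgs5 and Acta2 most of the pericyte sum. Without Neurod1 itself the pinealocyte sums overlapped too, at 38853.2 to 61855.1 in knockout pools and 57666.1 to 78007.4 in wildtype pools. The knockout sum was still the lower one within every number. Of the 15 tested pinealocyte markers, Neurod1 included, 13 had a lower and 2 a higher mean in knockout. The genotypes lay apart for 5 of them, all lower (all genes 4.33%). Within all 3 numbers 11 were lower (all genes 15.4%) and 0 higher (all genes 14.9%). Choroid plexus and ependyma markers (9 genes), a neighbouring tissue, varied most between pools, with sums of 96487.7, 74356.5 and 3670.8 in knockout pools and 5435.6, 45224.7 and 76497 in wildtype pools. Pools of the same number thus differed widely in them, above all within numbers 1 and 3, on which the within-number differences of the members rest. No marker was listed at 0. Early genes can be induced in many cell types, and the part of cell makeup in the members' values was not tested.

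No early or heat shock gene passed the test between the genotypes. Of the 31 tested members 0 were called by limma, against 0.00781% of all tested genes, and the smallest adjusted p was 0.998. At an unadjusted p under 0.05 there was 1 member, Dusp2 (all genes 3.34%), and with the pool number as a block there were 2, Fos and Dusp2 (all genes 6.24%), again with no adjusted p under 0.768. Mean log2 values were higher in knockout pools for 18 members and lower for 13, and a lower mean was seen in 46.8% of all genes. The genotypes did not overlap for 1 member, Dusp2, which lay higher (all genes 5.77%), and for 0 members in the other direction (all genes 4.33%), against 10.1% of all genes in both directions together. Within all 3 pool numbers 3 members were higher in knockout, namely Dusp1, Dusp2 and Hspa1a, and 5 were lower, namely Fos, Ier2, Ier3, Ier5 and Dnajb1. Over all genes these shares were 14.9% and 15.4%, so both counts lie near the background.

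The median difference over the 31 members was 0.12, against 0.028 over all tested genes. Within pool numbers 1, 2 and 3 it was 0.25, −0.12 and −0.028, against 0.11, 0.0040 and −0.056 over all genes. Centring each array on its median moved the median of all genes to −0.11 and that of the members to −0.023, with 14 members higher and 17 lower, so the split between higher and lower means turned with the scaling. The members spread more between pools. Their median SE was 0.42, against 0.34 over all genes, and the median ratio of the highest to the lowest of the 6 signals was 3.50, against 2.39 over all genes.

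**Figure D1:**
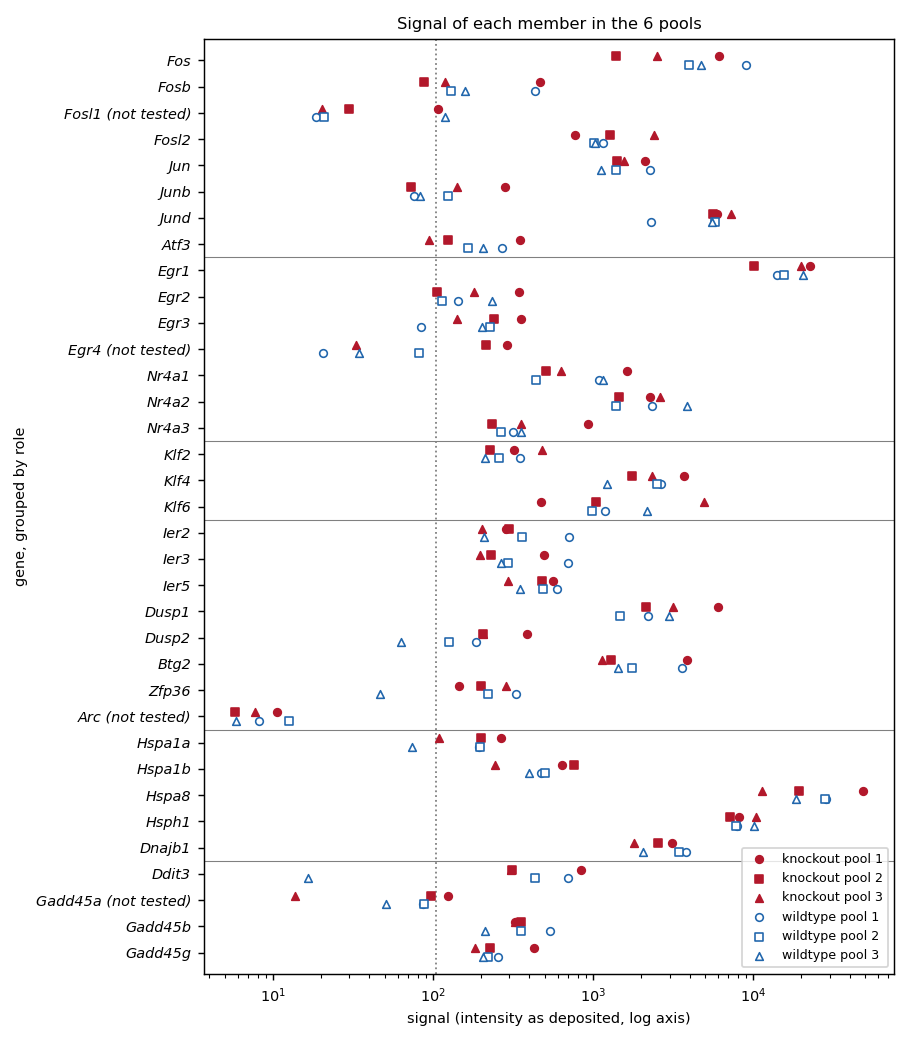
Signal of each of the 35 members (rows, grouped by role) in the 6 pools on a log axis, with filled symbols for knockout pools and open symbols for wildtype pools, and a dotted line at the filter's signal of 105. The genotypes overlap in every row but that of Dusp2, in which all 3 knockout pools lie above all 3 wildtype pools. Arc lies at 5.8 to 12.6 in all pools.

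**Figure D2:**
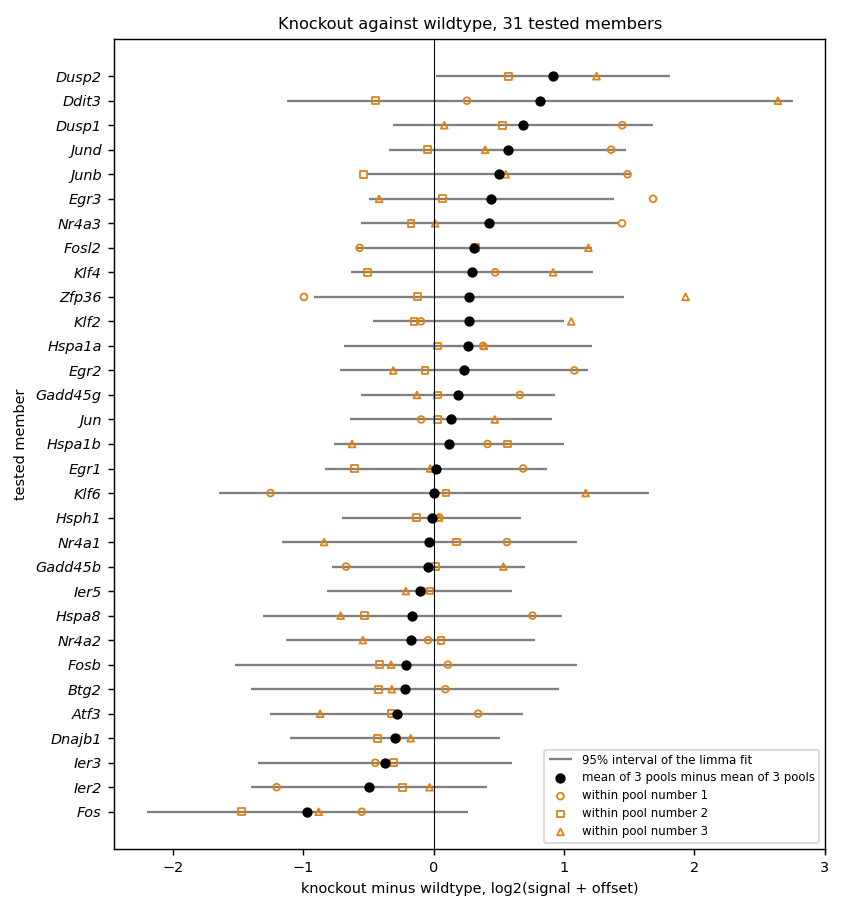
Knockout minus wildtype difference on the log2(signal + 38.6) scale for the 31 tested members, as the difference of group means (black) with the 95% interval of the limma fit (grey line) and the difference within each pool number (orange symbols). The interval of Dusp2 starts at 0.020, every other interval crosses 0, and the 3 within-number values of most members fall on both sides of 0.

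The Fos and Jun proteins and their partner Atf3 pair up to form the AP-1 transcription factor, and among their genes Fos had the most negative difference of the 31. Fos gave signals of 6119.9, 1396.2 and 2521.6 in knockout pools, against 8988.3, 3946.5 and 4683.2 in wildtype pools. Knockout pools 2 and 3 lay below every wildtype pool, while knockout pool 1 lay above wildtype pools 2 and 3, so the genotypes overlapped. Means were 3346 ± 2467 in knockout and 5873 ± 2723 in wildtype (SD, n = 3 pools each). The difference was −0.97 (SE 0.55, 95% interval −2.20 to 0.26, limma adjusted p = 0.998), and within pool numbers 1, 2 and 3 it was −0.55, −1.47 and −0.88. With the pool number as a block the SE was 0.27 and the limma adjusted p 0.768. Leaving out knockout pool 2 gave −0.48 for Fos, and leaving out knockout pool 1 gave −1.53. Fos is the textbook early gene, absent from most resting cells and strongly induced after stimulation.

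The other members of the Fos family overlapped as well. Fosb gave 467.6, 87.1 and 118.5 in knockout pools, against 431.1, 129.3 and 158.6 in wildtype pools (−0.21, SE 0.58). Both pools numbered 1 stood far above the other 4, and the genotypes interleaved. Fosl2, the partner with the night-time rhythm in rats, gave 769.3, 1269.5 and 2401.2 in knockout pools, against 1160, 1011.1 and 1033 in wildtype pools (0.31, SE 0.40). Its wildtype pools lay close together and within the range of the knockout pools. Fosl1 was below the filter, with values of 20.3 to 106.8 in knockout pools and 18.6 to 118.9 in wildtype pools.

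Jun, the main dimer partner of Fos, gave 2101.7, 1413.5 and 1556.5 in knockout pools, against 2249.8, 1385.9 and 1114.2 in wildtype pools (0.13, SE 0.34). The ranges of this tested probe set nearly coincided. Another Jun probe set, 1417409_at, gave 1354.5, 633.4 and 177.2 in knockout pools, against 3428.5, 806.6 and 197.2 in wildtype pools. It was lower in knockout within every number (−0.59, not tested), and the genotypes overlapped. Junb, which restrains Jun, gave 282, 72.7 and 140 in knockout pools, against 75.8, 123.3 and 83.2 in wildtype pools. Knockout pool 1 was the highest and knockout pool 2 the lowest of all 6. The Junb difference was 0.50 (SE 0.45, 95% interval −0.51 to 1.51, limma adjusted p = 0.998), and within pool numbers it was 1.49, −0.54 and 0.55.

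Jund, the family member that most cells make without a stimulus, gave 5946.4, 5568 and 7232.3 in knockout pools, against 2292.5, 5756.8 and 5492.3 in wildtype pools. Wildtype pool 1 stood far below the other 5, which lay between 5492.3 and 7232.3. The Jund difference was 0.57 (SE 0.40, 95% interval −0.34 to 1.48, limma adjusted p = 0.998), the mean of 1.36, −0.048 and 0.39 within pool numbers, and it was 0.14 without wildtype pool 1 and 0.072 with array weights. Atf3, a stress-induced factor that binds with Jun proteins, gave 350.8, 124.7 and 94.6 in knockout pools, against 268.9, 165.7 and 205.2 in wildtype pools (−0.28, SE 0.43). The wildtype range lay inside the knockout range. Of the 7 tested AP-1 genes 4 had a higher and 3 a lower mean in knockout, with a median difference of 0.13.

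Egr1, the zinc finger factor induced by growth factors and nerve activity, gave 22700.9, 10121.6 and 19942.3 in knockout pools, against 14096.9, 15479.2 and 20330.2 in wildtype pools. The wildtype pools lay inside the range of the knockout pools. The Egr1 difference was 0.016 (SE 0.38, 95% interval −0.84 to 0.87, limma adjusted p = 0.999), and within pool numbers it was 0.69, −0.61 and −0.028. Its sign was negative after quantile normalization (−0.23) and median centring (−0.12). The interval spans differences of up to 0.84 downward and 0.87 upward on the log2 scale, which bounds what 3 pools a genotype can show for this gene.

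Egr2, which myelinating Schwann cells need, gave 345.4, 106.5 and 181 in knockout pools, against 143.2, 113.5 and 233.9 in wildtype pools (0.23, SE 0.42). Both the highest and the lowest value were knockout pools. Egr3 gave 355.2, 239.5 and 140.4 in knockout pools, against 84.1, 227 and 200.9 in wildtype pools. Wildtype pool 1 was the lowest and knockout pool 1 the highest, and the other 4 interleaved. The Egr3 difference was 0.44 (SE 0.42, 95% interval −0.50 to 1.38, limma adjusted p = 0.998), within pool numbers it was 1.68, 0.066 and −0.42, and without number 1 it was −0.18. Another Egr3 probe set, 1436329_at, gave 317.3, 126.7 and 121.4 in knockout pools, against 232.5, 102.8 and 273.4 in wildtype pools. Its difference had the opposite sign (−0.12, not tested), wildtype pool 1 was not its lowest, and the genotypes overlapped. Egr4 was below the filter, with 289.8, 213 and 32.8 in knockout pools and 20.5, 82.2 and 34.2 in wildtype pools. The genotypes overlapped through knockout pool 3.

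The 3 orphan nuclear receptors of the Nr4a family are early genes that act without a known ligand. Nr4a1 gave 1632.4, 503.7 and 627.1 in knockout pools, against 1094.2, 441.3 and 1154.3 in wildtype pools (−0.035, SE 0.50). Nr4a2, which dopamine neurons need, gave 2262.2, 1440.3 and 2632.1 in knockout pools, against 2333.1, 1385.1 and 3855.6 in wildtype pools (−0.18, SE 0.42). For both, pool number 2 was the lowest in either genotype. Another Nr4a2 probe set, 1447863_s_at, gave 364.7, 331.3 and 351.3 in knockout pools, against 317.4, 330.3 and 288.1 in wildtype pools. Its genotypes lay narrowly apart with knockout higher, and it was not the probe set that was tested. The genotypes overlapped in the further Nr4a2 probe sets. Nr4a3 gave 925.8, 231.8 and 355.2 in knockout pools, against 315.8, 266.6 and 352.3 in wildtype pools. Knockout pool 1 stood apart from the other 5, which lay between 231.8 and 355.2. The Nr4a3 difference was 0.43 (SE 0.44, 95% interval −0.56 to 1.41, limma adjusted p = 0.998), within pool numbers it was 1.44, −0.17 and 0.011, and without knockout pool 1 it was −0.094.

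The Klf genes encode zinc finger factors that limit growth. Klf2, best known from endothelium under flow, gave 322.3, 227.7 and 479.3 in knockout pools, against 347.7, 257.3 and 210.7 in wildtype pools (0.27, SE 0.32). Klf4, one of the reprogramming factors, gave 3704.4, 1755.2 and 2323.7 in knockout pools, against 2661.2, 2511.9 and 1214.2 in wildtype pools (0.29, SE 0.41). Klf6 gave 472.8, 1046.3 and 4948 in knockout pools, against 1180.3, 977.9 and 2184.3 in wildtype pools. The genotypes overlapped for all 3, and Klf6 held both its extremes in the knockout pools. The Klf6 difference was 0.0022 (SE 0.73), with −1.25, 0.094 and 1.17 within pool numbers. Another probe set of Klf6, 1447448_s_at, showed the same order in the knockout pools, with 392.6, 944 and 2736.8, against 987.9, 1019.1 and 1670.6 in wildtype pools. The dimmer 1427742_a_at also had this order, with 171.9, 323.3 and 360.9 in knockout pools. It was not seen in 1418280_at (145.6, 132.2 and 216.3) or 1459718_x_at (176.7, 127.2 and 487.6), in which knockout pool 2 was the lowest knockout pool.

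Dusp2, a nuclear phosphatase that switches off the kinases Erk and p38, was the one member whose genotypes did not overlap in the tested probe set. It gave 387.9, 204.4 and 203.8 in knockout pools, against 186.3, 124.9 and 63.4 in wildtype pools. The lowest knockout pool lay a little above the highest wildtype pool. Means were 265 ± 106 in knockout and 125 ± 61.4 in wildtype (SD, n = 3 pools each). The Dusp2 difference was 0.91 (SE 0.40, 95% interval 0.020 to 1.81), with 0.92, 0.57 and 1.25 within pool numbers. Its unadjusted p was 0.0461 and its adjusted p 0.998 (limma), so the difference did not pass. Wildtype pool 3 was dimmer than the filter's signal of 105, where the offset compresses differences.

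Dusp1, the phosphatase of the same kinases with the night-time rhythm in rats, gave 6064.8, 2138.6 and 3164.5 in knockout pools, against 2201.6, 1471.1 and 2989.9 in wildtype pools. Within each number the knockout pool was the higher one, but knockout pool 2 lay below wildtype pools 1 and 3. The Dusp1 difference was 0.69 (SE 0.44, 95% interval −0.31 to 1.68, limma adjusted p = 0.998), with 1.45, 0.53 and 0.081 within pool numbers, and it was 0.28 without knockout pool 1. Both Dusp genes were thus higher in knockout within every number, and both missed the threshold.

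The tested probe sets of the 3 Ier genes were lower in knockout within every number. Ier2 gave 285, 298.8 and 202.3 in knockout pools, against 708, 360.4 and 207.8 in wildtype pools. Wildtype pool 1 stood far above the rest, and the knockout pools overlapped with wildtype pool 3. The Ier2 difference was −0.49 (SE 0.40, 95% interval −1.40 to 0.41, limma adjusted p = 0.998), with −1.21, −0.24 and −0.033 within pool numbers, and it was −0.076 without wildtype pool 1. Ier3, which protects cells from death signals, gave 496.1, 231 and 195.9 in knockout pools, against 691.5, 295 and 264.9 in wildtype pools (−0.38, SE 0.43). Ier5, a cofactor of heat shock factor, gave 557.7, 478.1 and 295.6 in knockout pools, against 593.2, 488.3 and 349.1 in wildtype pools (−0.11, SE 0.31). In both, number 1 was highest and number 3 lowest in either genotype, and the genotypes overlapped. A dimmer Ier5 probe set, 1460009_at, went the other way, with 165.3, 202.1 and 184.1 in knockout pools, against 154, 162.9 and 154.2 in wildtype pools. Its genotypes did not overlap, and it was not the probe set that was tested.

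Btg2, which stops division in early neurons, gave 3842, 1295.6 and 1141.2 in knockout pools, against 3609.2, 1753.9 and 1436.3 in wildtype pools (−0.22, SE 0.52). Both pools numbered 1 lay far above the other 4. The other Btg2 probe set, 1448272_at, gave 2434.5, 1383.6 and 1053 in knockout pools, against 3206.1, 2318.8 and 1709.1 in wildtype pools (−0.60, not tested). It was lower in knockout within every number, while the tested one was higher within number 1, and the genotypes overlapped in both. Zfp36, which speeds the decay of cytokine and early gene mRNAs, gave 145, 197.9 and 287.3 in knockout pools, against 327.6, 219 and 46.8 in wildtype pools (0.27, SE 0.53). Its wildtype range contained the knockout range. Arc, the synaptic gene of excited neurons, was listed at 10.6, 5.8 and 7.7 in knockout pools and at 8.2, 12.6 and 5.9 in wildtype pools, below the filter in all 6.

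Of the 5 heat shock members, the inducible Hsp70 genes Hspa1a and Hspa1b are near copies of each other, and their signals cannot be fully separated. Hspa1a gave 264.2, 200.1 and 108.2 in knockout pools, against 194.3, 195.6 and 73.8 in wildtype pools. Number 3 was the lowest in both genotypes, and the groups overlapped. The Hspa1a difference was 0.26 (SE 0.42, 95% interval −0.69 to 1.21, limma adjusted p = 0.998), with 0.38, 0.027 and 0.39 within pool numbers, and it was −0.088 without wildtype pool 3.

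Hspa1b gave 639.6, 761.2 and 245 in knockout pools, against 470.8, 502.3 and 399.3 in wildtype pools. The wildtype pools lay inside the knockout range. The Hspa1b difference was 0.12 (SE 0.39, 95% interval −0.76 to 1.00, limma adjusted p = 0.998), with 0.41, 0.56 and −0.63 within pool numbers, and its sign turned after median centring (−0.023). Another Hspa1b probe set, 1427126_at, was lower in every knockout pool, with 127.9, 113.8 and 128.3, against 140.1, 130.7 and 146.6 in wildtype pools. Its genotypes did not overlap, in the opposite direction, and it was not the probe set that was tested.

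Hspa8, the Hsp70 chaperone that cells make at all times, gave 48512.9, 19311.5 and 11298.6 in knockout pools, against 28687.6, 27949 and 18564.5 in wildtype pools. The knockout pools held the highest and the lowest value. Its mean signal was 26374 ± 19587 in knockout and 25067 ± 5643 in wildtype (SD, n = 3 pools each), while the log2 difference was −0.16 (SE 0.51, 95% interval −1.31 to 0.98, limma adjusted p = 0.998), so the 2 summaries differ in sign. Within pool numbers the Hspa8 difference was 0.76, −0.53 and −0.71. A further 2 bright probe sets of Hspa8 were lower in knockout within all 3 numbers. The probe set 1420623_x_at gave 15756.2, 6572.5 and 3759.1 in knockout pools, against 17440.8, 9689.6 and 6298.5 in wildtype pools, and 1420622_a_at gave 8679.3, 3546 and 1960.2 in knockout pools, against 13239.8, 4619 and 3735.3 in wildtype pools. In both, number 1 was highest and number 3 lowest in either genotype, and the genotypes overlapped.

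Hsph1, a nucleotide exchange factor for Hsp70, was the steadiest member, with 8176.1, 7120.8 and 10425.1 in knockout pools, against 7939.1, 7807.5 and 10147 in wildtype pools. Its difference was −0.017 (SE 0.30), and its highest signal was 1.46 times its lowest. A dimmer Hsph1 probe set gave 777.7, 782 and 272.5 in knockout pools, against 1924.9, 913.5 and 481 in wildtype pools. It was lower in knockout within every number (−0.74, not tested), and the genotypes overlapped. The probe sets of this gene thus disagree in spread and in the size of the difference. Dnajb1, the Hsp40 partner of Hsp70, gave 3111.2, 2544.8 and 1808.4 in knockout pools, against 3788.4, 3446 and 2050.1 in wildtype pools (−0.30, SE 0.36). The tested probe set of Dnajb1 was lower in knockout within every number, and the genotypes overlapped. A dimmer Dnajb1 probe set, 1416756_at, gave 579.9, 884.1 and 230.1 in knockout pools, against 536.7, 317.4 and 311.6 in wildtype pools. Its difference was 0.37 (not tested), with 0.10, 1.37 and −0.38 within pool numbers, and the genotypes overlapped. Of the 5 heat shock members 2 had a higher and 3 a lower mean in knockout, with a median difference of −0.017.

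**Figure D3:**
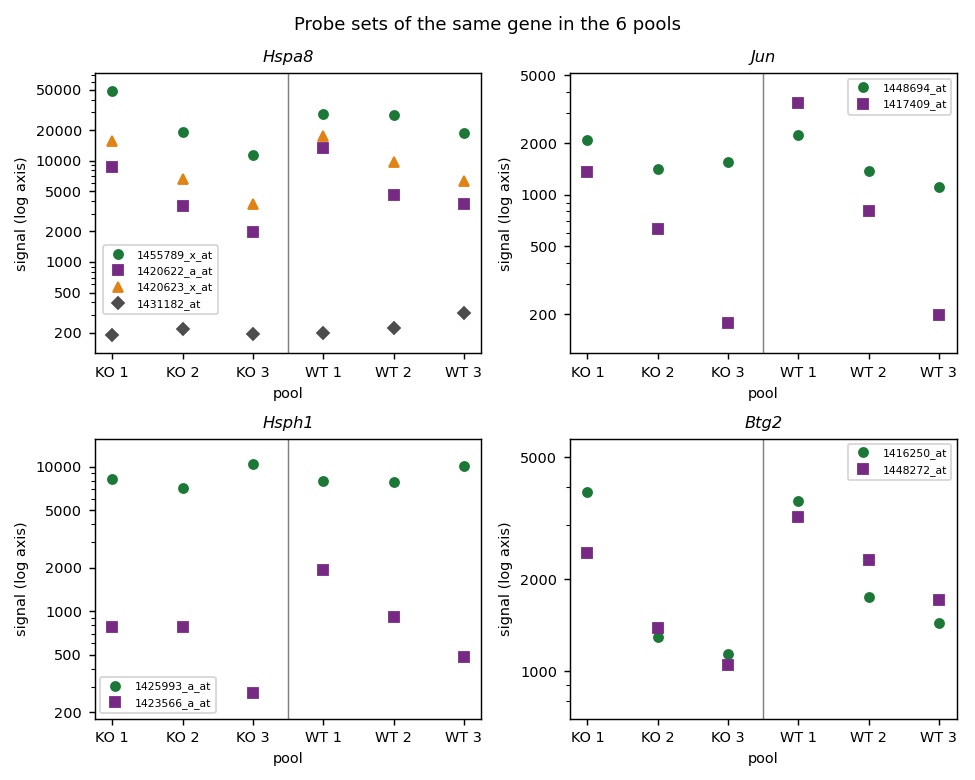
Signals of all probe sets of Hspa8, Jun, Hsph1 and Btg2 in the 6 pools on log axes, 1 panel a gene and 1 symbol a probe set, with knockout (KO) pools left of the line and wildtype (WT) pools right of it. The 3 bright Hspa8 probe sets are highest in pool number 1 and lowest in number 3 in both genotypes, and 1417409_at of Jun runs from 177.2 to 1354.5 in knockout pools and from 197.2 to 3428.5 in wildtype pools while 1448694_at stays between 1114.2 and 2249.8.

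Ddit3, the factor of prolonged endoplasmic reticulum stress, gave 833.8, 309.4 and 305.7 in knockout pools, against 692.7, 435.6 and 16.6 in wildtype pools. Wildtype pool 3 stood far below the other 5. The Ddit3 difference was 0.82 (SE 0.86), and 2.64 within number 3 set it apart from 0.25 and −0.45 within numbers 1 and 2. Another Ddit3 probe set, 1443897_at, gave 309.5, 96 and 108 in knockout pools, against 118.7, 111.6 and 118.3 in wildtype pools. Wildtype pool 3 was not low in it. Its difference was 0.30 (not tested), with 1.15, −0.16 and −0.098 within pool numbers, and the genotypes overlapped. Gadd45b, which responds to stress and to nerve activity, gave 322.7, 355.3 and 324.9 in knockout pools, against 537.5, 352 and 212.4 in wildtype pools (−0.042, SE 0.33). Gadd45g gave 425, 226.5 and 183.9 in knockout pools, against 254.7, 221.2 and 204.8 in wildtype pools (0.19, SE 0.33). The genotypes overlapped in both. Another Gadd45b probe set, 1450971_at, was lower in knockout within every number (−0.54, not tested), with −0.53, −0.38 and −0.70. A further one, 1420197_at, had a difference of 0.28 (not tested). The genotypes overlapped in these probe sets as well. Gadd45a, a p53 target, was below the filter, with 13.7 to 124.6 in knockout pools and 50.9 to 87.8 in wildtype pools.

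Many members were highest in the pools numbered 1 of both genotypes. As a description made after seeing the values, both pools numbered 1 lay above the other 4 for 11 of the 31 tested members, against 19.0% of all genes, and below them for 0 members, against 10.3% of all genes. The 11 were Fos, Fosb, Jun, Atf3, Klf4, Ier3, Ier5, Btg2, Hspa8, Ddit3 and Gadd45g. This count is of the tested probe sets. In other probe sets above the filter, number 1 minus the others was −0.33 for Klf4 (1417395_at), −0.11 for Ier5 (1460009_at) and −0.23 for Hspa8 (1431182_at). The other probe sets of Jun, Btg2 and Ddit3 and the brighter ones of Hspa8 again had both pools numbered 1 on top. Number 1 stood above the mean of numbers 2 and 3 in both genotypes for 20 of the 31, against 37.9% of all genes. The median of this difference was 0.81 in knockout and 0.48 in wildtype over the members, against 0.21 in knockout and 0.032 in wildtype over all genes. A limma fit with genotype and number 1 as terms, also made after seeing the values, called 0 of the 12797 genes. Its smallest adjusted p for a member was 0.197. At an unadjusted p under 0.05 in that fit there were 10 of the 31 members (32.3%), against 18.7% of all genes.

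Among the early transcription factors Fosb showed the largest such shift. Fosb was 1.85 higher in pool 1 than in the mean of pools 2 and 3 in knockout and 1.37 higher in wildtype, on the log2 scale. The shift of Fos was 1.68 in knockout and 1.06 in wildtype, and that of Btg2 was 1.63 in knockout and 1.17 in wildtype. Ier3 was 1.09 higher in knockout and 1.20 higher in wildtype. Klf6 and Jund went the other way, with −2.19 in knockout and −0.30 in wildtype for Klf6 and −0.093 in knockout and −1.28 in wildtype for Jund. Of the 15 tested pinealocyte markers 5 had both pools numbered 1 above the other 4, and 9 were higher in number 1 in both genotypes. Tph1, the first enzyme of serotonin synthesis, was among the 5, with 12501.2, 3794.6 and 2755.2 in knockout pools, against 15094.6, 8880.6 and 6295.5 in wildtype pools. Otx2, a factor of pinealocyte fate, was lowest in number 1 of either genotype, with 9617.8, 12143.8 and 10194.2 in knockout pools, against 12786.1, 14137.8 and 15177.7 in wildtype pools. Ribosomal protein genes (25 tested) were 1.13 above their mean over the arrays in knockout pool 1, while the other 5 pools ranged from −0.56 to 0.0051. The part of these in the members' values was not tested.

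**Figure D4:**
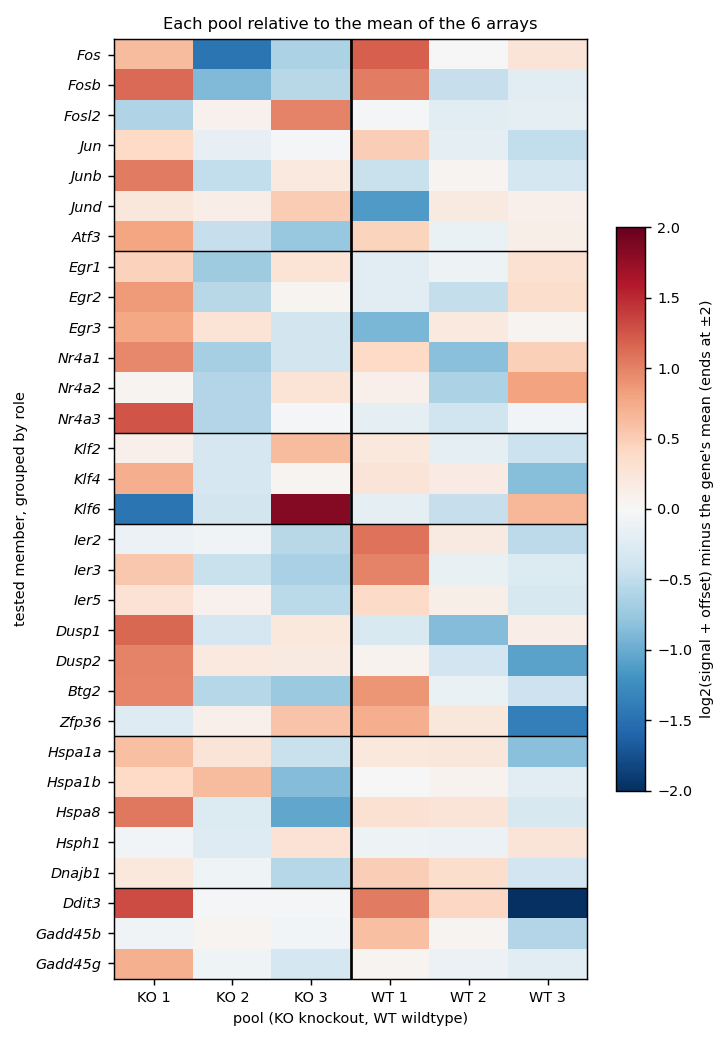
Deviation of each pool from the gene's mean over the 6 arrays, on the log2(signal + 38.6) scale, for the 31 tested members (rows, grouped by role) with knockout (KO) pools left of wildtype (WT) pools; red is above and blue below the mean, with colours ending at 2. Fos, Fosb, Ier3 and Btg2 are red in both pools numbered 1, and Klf6 in knockout pool 3 and Ddit3 in wildtype pool 3 are the darkest cells.

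Across the 6 arrays the members most like Fos were Fosb (Pearson r 0.87), Ier3 (0.85), Atf3 (0.82) and Btg2 (0.81), a description over 6 arrays that share amplification and scaling. The 5 genes outside the set with the highest r were Ppm1m (0.996), Tmeff1 (0.996), Pan2 (0.995), Ergic1 (0.994) and Noa1 (0.990). No p is given for these values.

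Other early response genes that are no members (38 of 40 listed had a probe set, 32 tested) gave 0 calls as well, with 21 higher and 11 lower means in knockout and a median difference of 0.084. After median centring 13 were higher and 19 lower. The genotypes did not overlap for 5 of the 32, against 10.1% of all genes, with 4 higher (all genes 5.77%) and 1 lower (all genes 4.33%). Nfkbia, the inhibitor that its own target NF-κB induces, gave 18357.7, 9665.2 and 12050.7 in knockout pools, against 5468.1, 7445.7 and 6180.9 in wildtype pools. Every knockout pool lay above every wildtype pool (1.02, SE 0.34, limma adjusted p = 0.998). Spry2 (0.91), an inhibitor of growth factor signalling, and Mafk (0.64), a small Maf transcription factor, also lay apart on the higher side. Homer1, whose short form is an early gene of synapses, lay apart on the lower side (−0.67), and each of the 3 had a limma adjusted p of 0.998.

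The factors and kinases upstream of the early genes (23 of 31 listed had a probe set, 22 tested) gave 0 calls, 15 higher and 7 lower means and a median of 0.064. After median centring 7 were higher and 15 lower. Srf gave 659.6, 276.3 and 339.1 in knockout pools, against 595.6, 316.3 and 258.6 in wildtype pools (0.10, SE 0.39). Creb1 gave 2170.9, 6911.9 and 4218.7 in knockout pools, against 5460.5, 7140.2 and 5958.1 in wildtype pools (−0.62, SE 0.43). The genotypes overlapped for both, and both had a limma adjusted p of 0.998. Elk1, a partner of Srf, lay apart on the higher side (0.38, SE 0.28) and Atf2 on the lower side (−0.55, SE 0.32), while Crtc1, a coactivator of Creb1, overlapped (0.34, SE 0.26); none was called.

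The other chaperones and heat shock factors (31 tested of 33 listed) had 9 higher and 22 lower means in knockout, a median of −0.25 and 0 calls; after median centring 8 were higher and 23 lower. Within all 3 numbers 14 of the 31 were lower (all genes 15.4%) and 3 higher (all genes 14.9%). Chordc1, an Hsp90 cochaperone, gave 1687.2, 1700.5 and 1182.7 in knockout pools, against 3618.2, 2411.1 and 2260.6 in wildtype pools (−0.83, SE 0.32, limma adjusted p = 0.998). All knockout pools lay below all wildtype pools. Dnajb5 lay apart on the higher side (0.66), and Hsf2, a heat shock factor (0.69), and Dnajb4 (−0.60) overlapped, each with a limma adjusted p of 0.998. Hsf1 was not analysed here. Both pools numbered 1 lay above the other 4 for 16 of these 31 genes (51.6%), against 19.0% of all genes.

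The endoplasmic reticulum and integrated stress genes (26 tested of 27 listed) gave 0 calls, 14 higher and 12 lower means and a median of 0.058, with 12 higher and 14 lower after median centring. Hspa5, the Hsp70 of the endoplasmic reticulum, gave 20025.9, 12771.4 and 7029.5 in knockout pools, against 18288.4, 14110.6 and 10378.3 in wildtype pools (−0.19, SE 0.43). Atf4, the factor upstream of Ddit3, gave 3886.4, 2141.5 and 2071.5 in knockout pools, against 3868.6, 2765 and 2249.1 in wildtype pools (−0.16, SE 0.36). For both genes number 1 was highest and number 3 lowest in either genotype, and the genotypes overlapped. Ern1, a sensor of unfolded proteins, lay apart on the higher side (0.44, SE 0.24), and Mdm2 (0.63), Ddit4 (0.87) and Pdia4 (−0.94) overlapped, each with a limma adjusted p of 0.998.

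Array weights were the setting that called members. With limma's array weights Dusp2 was higher (0.60, adjusted p = 0.0386) and Fos lower (−1.45, adjusted p = 0.00558) in knockout, but 1512 genes were then called higher and 1420 lower in all (11.8% and 11.1%). The weights were 6.20 for knockout pool 2 and 7.05 for wildtype pool 2, against 0.204 to 0.541 for the other 4, so this fit rests mainly on 1 pool of each genotype.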

How the data were processed

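The authors deposited 1 table of probe set signals, an intensity on a linear scale with 45037 values for each of 6 arrays. GCOS is named per the submitters' processing notes, with no version; the signal algorithm and any centring are not given in the sources used here. Trimmed means (2%) of the deposited intensities were 499.503 to 499.933 and the medians 132.4 to 183.7. Not analysed here were detection calls, scanner files and control probe sets. The number of arrays limits the precision.

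From these values log2(signal + 38.6) was fitted in limma 3.58.1 under R 4.3.3 (lmFit, eBayes with a mean-variance trend, genotype only, two-sided, 4 residual degrees of freedom). An exact permutation test of 3 against 3 pools cannot go below p = 0.1 and is not given. The code was tested on simulated data. Probe sets naming 1 gene numbered 34945, several 932, none 9160; RefSeq identifiers matched 34741 and changed 0 symbols. The members' 66 probe sets gave the same choice by mean signal and by mean log2.

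The members and lists were chosen with earlier results of these data known. Full values are given for the 8 members with the smallest unadjusted p and for Fos, Egr1, Hspa1a, Hspa1b and Hspa8, and in each pathway list for up to 4 genes with the smallest p and for Srf, Creb1, Hspa5 and Atf4. Pools of a number share a label date and their deviations from the group means correlated by 0.32, 0.25 and 0.36 across genes, so a block on the number was an alternative. Alternatives also covered the offset, scaling, filter, probe set choice, variance trend, array weights and leaving out pools.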

Additional observations from a re-analysis of the deposited data

How the results depend on the processing

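Array weights called 1512 genes higher and 1420 lower, and among the members 1 higher and 1 lower; no other alternative called a member. Of all genes 1 was lower in the reported comparison, against 0 with an offset of 1 and without both pools numbered 1, 2 or 3. Leaving out 1 pool gave 0 to 1; it was 0 without knockout pool 1, wildtype pool 1, wildtype pool 2 or wildtype pool 3. With the replicate block, pairing pools by number, 0 genes were higher and 1 lower, and 0 members in either direction, so the block changed no call. The median member difference ran from −0.056 to 0.25 over the alternatives and from −0.053 to 0.25 when 1 pool was left out.

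Dusp2, Dusp1, Jund, Ier2 and Fos kept their sign in every alternative in which they were tested, but leaving out 1 pool moved their size widely, from 0.61 to 1.18 for Dusp2, 0.28 to 1.03 for Dusp1, 0.14 to 0.80 for Jund, −0.88 to −0.076 for Ier2 and −1.53 to −0.48 for Fos; Dusp2, Junb, Egr3 and Hspa1a were not tested with 60% of probe sets left out. Signs turned with array weights for Junb (−0.39), Nr4a3 (−0.12), Egr1 (−0.53), Pdia4 (0.28) and Srf (−0.16). With median centring they turned for Egr1 (−0.12), Hspa1b (−0.023) and Srf (−0.036), and with quantile normalization for Egr1 (−0.23). Without both pools numbered 1 they turned for Egr3 (−0.18), Nr4a3 (−0.082), Egr1 (−0.32) and Hspa1b (−0.031), without those numbered 2 for Hspa1b (−0.11) and Hspa8 (0.021), and without those numbered 3 for Hspa8 (0.11) and Srf (−0.017). The mean of all probe sets turned Ergic1 (0.16). Leaving out 1 pool gave ranges that span 0 for Nr4a3 (−0.094 to 0.82), Egr1 (−0.21 to 0.37), Hspa1a (−0.088 to 0.55), Hspa1b (−0.17 to 0.58), Hspa8 (−0.73 to 0.32), Srf (−0.24 to 0.43), Hspa5 (−0.55 to 0.20) and Atf4 (−0.45 to 0.051). The cause of these turns was not tested. The count of members with both pools numbered 1 on top, an alternative chosen after seeing the data, ran from 9 to 14. Another background correction could not be tried on 1 processed value per probe set, and a batch by label date is the replicate block.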
